A study of Polistes dominula with 96 samples.

Results

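Brains of old and young workers of *Polistes dominula*, the European paper wasp, were compared 3 days after their nests had lost the queen. The wasps are the 24 individuals labelled with treatment day 3, of 96 individuals in the series. The comparison set 9 old wasps, aged at least 20 days, against 8 young wasps, aged at most 10 days, so that 17 of the 96 libraries entered the contrast. The 7 wasps of middle age lent only their spread to the test. Old wasps were 21 to 33 days old (median 26), young wasps 3 to 9 days (median 5.5) and middle wasps 11 to 17 days (median 13). The brain of each wasp was 1 RNA-seq library.

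By the study's methods, nests were brought into the laboratory before workers emerged, and subordinate foundresses were taken off. By its listing, every nest of the 24 wasps had its queen taken away. Queens (n = 26), workers of control nests whose queen stayed (n = 12, aged 1 to 23 days) and wasps of other nests sampled at day 12 after removal (n = 34, aged 3 to 28 days) served only as points of reference. By the numbers in their names, some of the queens came from nests that lost their queen, nests 38, 47, 51 and 69 among them. The old wasps came from nest 47 (5 wasps), nest 38 (3 wasps) and nest 57 (1 wasp). The young wasps came from nest 69 (3), nest 51 (2) and nests 38, 44 and 57 (1 each), so that only nests 38 and 57 held both age groups. Wasps of a nest are not independent. The study lists 2 of the old wasps (replicates 4 and 8) and 1 middle wasp (replicate 23) as the new queens of their nests. Old replicates 2, 3 and 10 and middle replicates 11 and 21 are listed as intermediate, and every young wasp as a worker. Listed role thus differed between the age groups, and its part in the differences was not tested beyond leaving out the new queens. Young replicate 1 carries the number of a control nest in its name but is listed under nest 38.

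Old and young libraries were of like depth. They held 11426664 to 16476635 counts (median 13597331) in old wasps and 10045242 to 15171911 counts (median 13536040) in young wasps (exact two-sided permutation test, p = 0.53). Levels below are in CPM, the count of a gene scaled to library size. Markers of brain neurons were measured in every wasp, at a summed 2251 to 2934 CPM over 7 genes in young and old wasps. Markers of other tissues of the head were present too. The 19 muscle genes summed to 7792 to 25608 CPM in old and 4811 to 43378 CPM in young wasps, and none of them was at 0 in every wasp. Photoreceptor markers (17 genes) summed to 2270 to 7546 CPM in old and 774 to 13689 CPM in young wasps. Exocrine gland markers (14 genes) summed to 384 to 5262 CPM in old and 368 to 7378 CPM in young wasps. The part of eye and gland RNA in the differences was not tested. In such bulk samples, fewer cells of a type and less RNA per cell cannot be told apart.

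In paper wasps a worker emerges as an adult on the nest of its mother, stays on the comb in its first days and takes up foraging as it ages. When the queen is lost, one of the oldest workers usually takes over egg laying. Mitochondria make most of the ATP of a brain through oxidative phosphorylation, in which complexes of the inner membrane pass electrons to oxygen, most of them pumping protons as they do, and the ATP synthase uses the proton gradient. Glial cells take up glutamate from synapses and turn it into glutamine, and a basement membrane rich in type IV collagen wraps the insect brain.

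Genes of oxidative phosphorylation were lower in the brains of old wasps. Across all genes, 225 were higher in old wasps (2.08% of 10794 tested) and 331 were lower (3.07%), at an adjusted p under 0.05 by the quasi-likelihood test of edgeR after Benjamini-Hochberg adjustment. Of the 65 genes of oxidative phosphorylation, 58 were lower and 0 were higher, and the median log2 difference, old minus young, was -0.65 beside 0.00 over all genes tested. The level of these genes, taken as the mean log2 CPM over the 65, was 7.56 at the lowest, 7.72 at the median and 7.95 at the highest in old wasps. In young wasps it was 7.90 at the lowest, 8.38 at the median and 8.84 at the highest. The groups overlapped by a single young wasp of nest 69, replicate 18 (aged 3 days, 7.90), which lay below the highest old wasp.

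The difference was found in each of the 5 complexes. Complex I (NADH dehydrogenase), which takes electrons from NADH, had 29 of 33 genes lower, with a median log2 difference of -0.55. Complex II (succinate dehydrogenase) had 3 of 4 lower (median -0.56) and complex III, which passes electrons on to cytochrome c, 8 of 8 (median -0.93). Complex IV (cytochrome c oxidase) had 6 of 6 lower (median -0.81) and complex V, the ATP synthase, 12 of 14 (median -0.81). The plot of differences by complex shows complexes III, IV and V with larger differences than complex I, which was not tested as a difference between complexes.

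**Figure D1:**
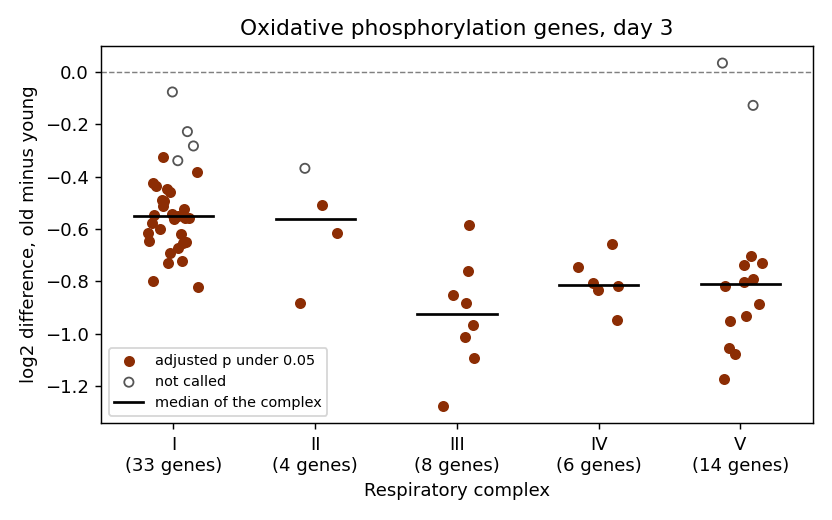
Log2 difference in expression between old (n = 9) and young (n = 8) wasps of day 3 for 65 oxidative phosphorylation genes, one point per gene, by respiratory complex. Filled points passed an adjusted p under 0.05, open points did not, and bars mark the median of each complex, from -0.55 in complex I to -0.93 in complex III. A single gene, a subunit s of ATP synthase, lies above 0 (0.03).

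The gene with the smallest p among these was *ATPsyngamma*, the central shaft of the ATP synthase. Its level was 222 CPM at the lowest, 234 at the median and 292 at the highest in old wasps, against 360, 540 and 875 CPM in young wasps. Every young wasp lay above every old wasp, and the mean was 2.26-fold higher in young wasps (log2 difference -1.17 ± 0.13 SE, edgeR adjusted p = 1.01e-05). The middle wasps lay at 243 to 377 CPM, between the medians of both groups.

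*Cyt-c1*, the heme subunit of complex III that hands electrons to cytochrome c, had the largest difference of the 65. It stood at 182, 205 and 272 CPM in old wasps (lowest, median, highest) and at 297, 477 and 951 CPM in young wasps. No old wasp reached the lowest young wasp (log2 difference -1.28 ± 0.17 SE, edgeR adjusted p = 7.46e-05). Subunit 4 of cytochrome c oxidase had 443, 545 and 630 CPM in old and 753, 1084 and 1547 CPM in young wasps, again without overlap (-0.95 ± 0.12 SE, adjusted p = 3.84e-05). *ATPsynC*, which forms the proton-driven ring of the ATP synthase, was among the most abundant of these transcripts, at 1187 to 1690 CPM in old and 1803 to 4504 CPM in young wasps (-1.05 ± 0.14 SE, adjusted p = 6.12e-05). Levels of different genes in CPM are not corrected for gene length.

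In complex I the smallest p belonged to *ND-B17.2*, an accessory subunit. It measured 108, 119 and 137 CPM in old wasps and 152, 180 and 225 CPM in young wasps (lowest, median, highest), without overlap (-0.62 ± 0.08 SE, edgeR adjusted p = 4.17e-05). In all, 21 of the 65 genes had every young wasp above every old wasp, where 50 of all 10794 genes had (0.463%). The 7 genes that were not called were a pair of NADH dehydrogenase entries, *ND-ACP* (adjusted p = 0.053), *ND-75* (0.083), *SdhA* (0.113) and the 2 genes named as subunit s of ATP synthase, which had levels below 30 CPM and were close to 0 in difference (-0.13 and 0.03).

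Wasps just inside and just outside the age limits can be set side by side. The 3 young wasps aged 9 days had mean levels of the 65 genes of 7.96 to 8.62 on the log2 CPM scale and the 2 middle wasps aged 11 days had 7.83 and 7.87. The 2 middle wasps aged 17 days had 7.78 and 7.99, and the 3 old wasps aged 21 days had 7.64 to 7.77. The plot of mean level by age shows the middle wasps (median 7.87) nearer to the old ones (median 7.72) than to the young ones (median 8.38).

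**Figure D2:**
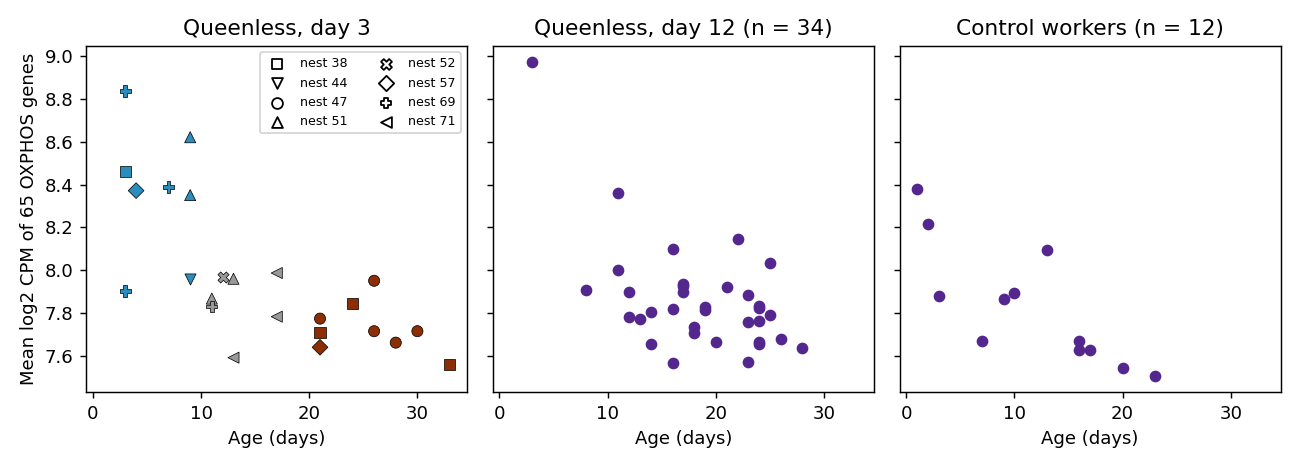
Mean log2 CPM of 65 oxidative phosphorylation genes in single wasps against age in days, for the 24 wasps of day 3 (blue young, grey middle, brown old, one symbol per nest), the 34 wasps of day 12 and the 12 control workers. At day 3 the old wasps lie between 7.56 and 7.95 and the young wasps between 7.90 and 8.84. At day 12 the wasp aged 3 days stands alone at 8.97.

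Because old and young wasps came mostly from different nests, the difference was looked at within the nests that held both. In nest 38 (3 old, 1 young) 62 of the 65 genes were lower in the old wasps, with a median log2 difference of -0.76, and in nest 57 (1 old, 1 young) 63 were lower, with a median of -0.75. These 2 values have no test. The only young wasp of nest 38 is replicate 1, whose name carries the number of a control nest, so that the value of nest 38 rests on that listing, and the value of nest 57 does not. Muscle markers were lower in these nests too, in 19 of 19 genes in nest 38 (median -1.60) and 13 of 19 in nest 57 (median -0.21), and their part in the within-nest values was not tested. With nest as a fixed term only those same 2 nests carry the contrast. The median of the 65 genes was then -0.75, beside -0.65 without the term, and 2 of them passed (58 at an unadjusted p under 0.05), of 22 genes in all, 0.204% of those tested. In that fit 18 of the 19 muscle genes were below 0, with a median of -1.12. Without young replicate 1 in the fit without nests, 57 of the 65 genes were lower. Without nest 47, the nest of 5 of the 9 old wasps, 37 of the 65 genes were lower.

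Muscle transcripts moved with these genes. Over the 24 wasps the mean level of oxidative phosphorylation genes and of the 19 muscle genes had a Pearson r of 0.633 (0.62 over 9 old and 0.816 over 8 young wasps), as a description. With the 11 glial markers the r was 0.721 over the 24 wasps (0.44 over old and 0.376 over young wasps), and the part of glia in these genes was not tested. With the muscle level as a covariate, an alternative chosen after the data had been seen, 57 of the 65 genes were lower, with a median log2 difference of -0.55 (3.11% of all genes were then lower). Without the 2 new queens 53 of the 65 were lower, and leaving out each old or young wasp in turn gave 55 to 60.

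Enzymes that feed the respiratory chain were lower as well. The 21 genes of the citric acid cycle and pyruvate dehydrogenase were listed after their values had been seen. Of them 16 were lower (beside 3.07% of all genes) and 0 higher, with a median log2 difference of -0.60. This list shares the 4 genes of complex II, 3 of them lower, with the oxidative phosphorylation genes above, so that the 2 counts are not separate. The count of lower genes was 4 without nest 47, 9 without nest 38 and 1 with nest as a fixed term. *kdn*, citrate synthase, which joins acetyl-CoA to oxaloacetate at the entry of the cycle, had 252, 386 and 510 CPM in old wasps and 477, 928 and 1544 CPM in young wasps (lowest, median, highest). All but 1 of the 8 young wasps lay above every old wasp (-1.32 ± 0.20 SE, edgeR adjusted p = 0.00017). *Scsalpha1*, of succinyl-CoA ligase, had 161 to 201 CPM in old and 229 to 475 CPM in young wasps, without overlap (-0.79 ± 0.10 SE, adjusted p = 6.08e-05), and it was also called with nest as a fixed term (-0.93, adjusted p = 0.0485). *Nc73EF*, of the 2-oxoglutarate dehydrogenase complex, did not differ measurably (log2 difference 0.00 ± 0.13 SE, adjusted p = 0.998).

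Glycolysis showed smaller differences, with 5 of 12 genes lower and 0 higher (median -0.32), of which 0 were called without nest 47 or with nest as a fixed term. All 5 act in the later part of the pathway, from triose phosphate isomerase to pyruvate kinase. Enolase, *Eno*, had 1153 to 1688 CPM in old and 1447 to 2579 CPM in young wasps, with overlap (-0.51 ± 0.11 SE, edgeR adjusted p = 0.00675). Of the early enzymes, *Pfk*, which commits sugar to the pathway, had a log2 difference of 0.23 ± 0.12 SE (adjusted p = 0.284) and *Hex-A* of 0.07 ± 0.12 SE (adjusted p = 0.809). *Pgi* and *Ald1*, also early, were below 0 (-0.29 and -0.12, edgeR adjusted p = 0.254 and 0.714). With nest as a fixed term *Pfk* and *Hex-A* were below 0 too (-0.11 and -0.31). In the later part, glyceraldehyde-3-phosphate dehydrogenase 2 was not called (-0.39 ± 0.12 SE, edgeR adjusted p = 0.061). A difference between the early and later parts was not tested. Mitochondrial ribosomal proteins, which build the machinery for translation inside the organelle, were called lower in 9 of 71 genes with a median of -0.14, and in 0 without nest 47. Of 19 antioxidant enzymes 2 were lower, *Sod2*, the mitochondrial superoxide dismutase (-0.48 ± 0.11 SE, adjusted p = 0.00843), and the peroxiredoxin *Prx5* (-0.23 ± 0.06 SE, adjusted p = 0.039). Beside these counts, 3.07% of all genes were lower.

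**Figure D3:**
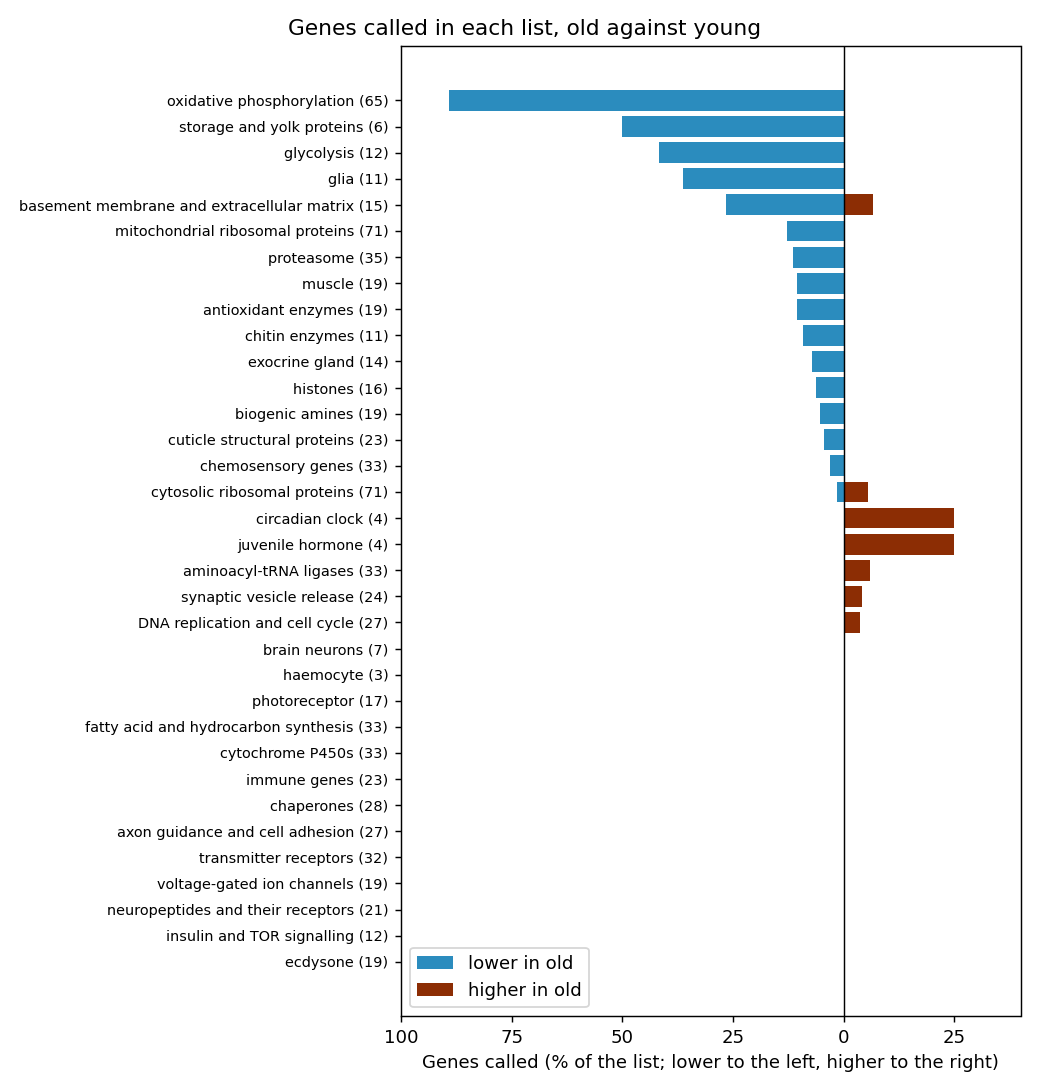
Share of genes called lower (blue, to the left) and higher (brown, to the right) in old against young wasps in each of 34 gene lists, in percent of the list, with the number of genes tested in brackets. Oxidative phosphorylation stands out with 58 of 65 genes lower. Over all 10794 genes 3.07% were lower and 2.08% higher.

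Of 11 glial markers 4 were lower in old wasps (beside 3.07% of all genes) and 0 higher. The 4 were *Gs2*, 2 glutamate transporters and *drpr*. Without nest 47 the count of lower markers was 2, and with nest as a fixed term it was 0. *Gs2*, glutamine synthetase, which turns glutamate into glutamine in glia, had 1215, 1694 and 2172 CPM in old wasps and 2572, 3585 and 4574 CPM in young wasps (lowest, median, highest). No old wasp reached a young wasp, and the mean was 2.12-fold higher in young wasps (-1.09 ± 0.16 SE, edgeR adjusted p = 0.000124). *Eaat-2*, which codes for a glutamate transporter, had 494 to 811 CPM in old and 873 to 1542 CPM in young wasps (-0.89 ± 0.14 SE, adjusted p = 0.000227), and another transporter, excitatory amino acid transporter 1-like, had a log2 difference of -0.99 ± 0.17 SE (adjusted p = 0.00076).

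Other glial genes differed less. *drpr*, the receptor with which glia engulf debris in *Drosophila*, was lower by a small margin (-0.25 ± 0.06 SE, edgeR adjusted p = 0.0141). *repo*, the transcription factor that defines most glia in *Drosophila*, had means of 328 ± 67.7 CPM in old wasps (SD, n = 9) and 407 ± 40.3 CPM in young wasps (SD, n = 8), with an edgeR adjusted p of 0.167. *Eaat2* did not pass either (0.07 ± 0.14 SE, adjusted p = 0.858). Of 7 neuronal markers and 19 voltage-gated ion channels 0 were called by edgeR or DESeq2, and 0 had an unadjusted p under 0.05. Of 32 transmitter receptors 0 were called by edgeR (5 at an unadjusted p under 0.05) and 2 by DESeq2.

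Collagens of the basement membrane were lower in old wasps. *Col4a1* and the entry collagen alpha-5(IV) chain-like, the chains of type IV collagen, had log2 differences of -1.44 ± 0.25 SE and -1.42 ± 0.26 SE (edgeR adjusted p = 0.000824 and 0.00148). *Col4a1* lay at 175, 324 and 506 CPM in old wasps and at 425, 956 and 1551 CPM in young wasps (lowest, median, highest), and 7 of 8 young wasps lay above every old wasp. *SPARC*, a protein that binds collagen IV and aids its deposition, was lower by 1.01 on the log2 scale (± 0.21 SE, adjusted p = 0.00504), with 265 to 483 CPM in old and 408 to 1463 CPM in young wasps. These 3 genes were among the 22 that were called with nest as a fixed term, but none of the 3 was called without nest 47 (log2 difference of *Col4a1* -1.37, that of *SPARC* -1.01). Of the 15 genes of basement membrane and matrix 4 were lower and 1 was higher, and the laminin chain *LanB2* was that one (0.25 ± 0.06 SE, adjusted p = 0.0142). Over all genes 3.07% were lower and 2.08% higher.

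Storage proteins rested on 1 wasp. Hexamerins are amino acid stores that larvae lay down and that newly emerged adults use up. *Hex70a* had 7.16, 18.8 and 128 CPM in old wasps and 17.7, 75.6 and 8529 CPM in young wasps (lowest, median, highest). The highest value belonged to young replicate 1 (aged 3 days, nest 38), while the other 7 young wasps reached 372 CPM at most. *Hex70a*, *HEX70b* and *Hex70c* passed in the full set (-5.16, -4.50 and -6.14, edgeR adjusted p = 0.0142, 0.0435 and 0.0126), and without this wasp their log2 differences were -1.65, -0.85 and -2.27 (adjusted p = 0.206, 0.685 and 0.214). Vitellogenin, *Vgn*, the yolk precursor made by the fat body, did not pass (1.00 ± 0.60 SE, adjusted p = 0.361).

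Several single genes with small p lay outside these groups. A leucine-rich repeat-containing protein 51-like gene had 131 to 176 CPM in old and 192 to 435 CPM in young wasps (-1.04 ± 0.12 SE, edgeR adjusted p = 1.19e-05). *Prosbeta3*, a core subunit of the proteasome, had 89 to 122 CPM in old and 129 to 167 CPM in young wasps (-0.49 ± 0.07 SE, adjusted p = 7.67e-05), and it was 1 of 4 proteasome genes lower of 35 (3.07% of all genes were lower). One histone H2A gene lay at 30.1 to 45 CPM in old and 50.3 to 74.9 CPM in young wasps (-0.72 ± 0.09 SE, adjusted p = 5.81e-05), whereas the other 15 histone genes were not called. *Nup75*, of the outer ring of the nuclear pore, had 166 to 209 CPM in old and 248 to 471 CPM in young wasps (-0.80 ± 0.10 SE, adjusted p = 4.17e-05). In each of these 4 genes every young wasp lay above every old wasp.

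Of the 19 muscle markers 2 were called lower in old wasps, beside 3.07% of all genes (7 of the 19 had an unadjusted p under 0.05, and DESeq2 called 4 lower). The log2 difference was below 0 in 14 of the 19, with a median of -0.55 beside -0.65 for the oxidative phosphorylation genes. The 2 called were muscle actin, at 156 to 437 CPM in old and 207 to 2035 CPM in young wasps (-1.76 ± 0.41 SE, edgeR adjusted p = 0.0119), and *TpnCIIb*, a troponin C (-1.38 ± 0.41 SE, adjusted p = 0.0493). *Mhc*, the myosin heavy chain, had a log2 difference of -0.49 ± 0.48 SE (adjusted p = 0.611). The part of muscle RNA in the other differences was not tested beyond the covariate above.

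Genes that were higher in old wasps showed smaller differences. The median size of the log2 difference was 0.41, beside 0.55 for the lower genes, and 17 of 225 exceeded 2-fold, against 49 of 331. Every old wasp lay above every young wasp in 14 genes (0.13% of all genes), and every young wasp above every old wasp in 48 of the lower genes and in 50 of all genes (0.463%). No gene passed a test against a 1.5-fold baseline in either direction in edgeR (255 at an unadjusted p under 0.05, and DESeq2 called 8, all lower).

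The gene with the smallest p among the higher ones was *nan*. It codes for Nanchung, a cation channel of the TRPV family that chordotonal organs need for hearing and gravity sensing in *Drosophila*. It stood at 10.1, 14.0 and 22.5 CPM in old wasps, 7.35 to 16.2 CPM in middle wasps and 2.39, 5.59 and 7.85 CPM in young wasps (lowest, median, highest). Every old wasp lay above every young wasp, and the mean was 2.78-fold higher in old wasps (1.48 ± 0.22 SE, edgeR adjusted p = 0.000128). Queens had 72.6 CPM on average, well above control workers at 10.8 CPM (control workers minus queens -2.75 on the log2 scale, adjusted p = 1.57e-10).

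Other genes were higher in old wasps with small p. *dre4*, the Spt16 subunit of the FACT complex that moves nucleosomes during transcription, had 65.1 to 79.8 CPM in old and 41.4 to 57.9 CPM in young wasps (0.47 ± 0.07 SE, edgeR adjusted p = 0.000248). *Mekk1*, a kinase of stress-activated MAP kinase cascades, had 66.2 to 90.6 CPM in old and 37.1 to 63.3 CPM in young wasps (0.56 ± 0.09 SE, adjusted p = 0.000291). Neither gene overlapped between groups. *tam*, the catalytic subunit of the polymerase that copies mitochondrial DNA, was higher in old wasps (0.80 ± 0.15 SE, adjusted p = 0.00224), at 5.99 to 9.82 against 3.49 to 6.62 CPM. *pyrroline-5-carboxylate reductase*, of proline synthesis, had 43.5 to 73.5 CPM in old and 29.5 to 50.3 CPM in young wasps (0.58 ± 0.11 SE, adjusted p = 0.00193).

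Genes of the nucleolus and of the nuclear pore were higher in part. These lists were made after the values had been seen. In the main fit 2.08% of all genes were higher and 3.07% lower. Of 29 genes of the nucleolus and ribosome assembly 8 were higher and 1 lower (median 0.25), with 0 higher without nest 47 or with nest as a fixed term. *Nop60B*, the enzyme that makes pseudouridine in ribosomal RNA, had 4.78 to 9.16 CPM in old and 2.86 to 5.64 CPM in young wasps (0.84 ± 0.16 SE, edgeR adjusted p = 0.00206). Outside the list, *dbe*, a factor of the small ribosomal subunit, had 11.9 to 14.7 against 6.11 to 11.7 CPM (0.58 ± 0.11 SE, adjusted p = 0.00232). Of 22 nuclear pore genes 6 were higher and 1, *Nup75*, was lower (median 0.20), again with 0 higher in both of those fits. *Nup133* and *Nup160* belong to the same outer ring as *Nup75* and went the other way (0.60 ± 0.12 SE and 0.40 ± 0.11 SE, adjusted p = 0.00317 and 0.0282). Of 71 cytosolic ribosomal proteins 4 were higher and 1 lower (median 0.15), beside 2.08% higher and 3.07% lower of all genes. The count of higher ones was 16 with the muscle level as a covariate (2.58% of all genes were then higher), 2 without the new queens, 1 without nest 38 and 0 without nest 47, with nest as a fixed term or with the ovarian index as a covariate.

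*Kr-h1*, the transcription factor through which juvenile hormone acts, was higher in old wasps as a group but split them. It had 0.872, 6.20 and 138 CPM in old wasps and 0.159, 1.06 and 3.34 CPM in young wasps (lowest, median, highest). Of the 9 old wasps 5 lay above every young wasp and 4 (0.872 to 2.11 CPM) lay among them. The 2 new queens among the old wasps had 61.8 CPM (replicate 4) and 138 CPM (replicate 8), and old wasps of nest 47 listed as workers had 33.1, 79.1 and 6.20 CPM. Old replicates 2, 3 and 10, listed as intermediate, had 0.872, 0.995 and 1.18 CPM. Middle wasps had 0.405 to 68 CPM, with 55.2 CPM in the new queen (replicate 23). The middle wasps listed as intermediate, replicates 11 and 21, had 68.0 and 33.5 CPM. The log2 difference was 4.76 ± 1.18 SE (edgeR adjusted p = 0.0184). It was 3.75 without the new queens (adjusted p = 0.0799), 3.65 without nest 47 (0.191) and 2.62 with nest as a fixed term (0.747). With the ovarian index as a covariate it was 2.76 (edgeR adjusted p = 0.164). With nest as a random effect it was 3.18 (limma voom adjusted p = 0.429). The edgeR call was also lost without nest 51 (0.0723), without nest 69 (0.0916) and for wasps aged 24 or more against 7 or less (0.122). Its age slope was -0.03 in control workers and 1.87 at day 12 (edgeR adjusted p = 0.985 and 0.143). The slope of day 3 was not called different from that of control workers (edgeR adjusted p = 0.891). Queens had 78.3 CPM on average and control workers 1.26 CPM (control workers minus queens -5.91 on the log2 scale, edgeR adjusted p = 4.29e-10). *jhamt*, an enzyme of juvenile hormone synthesis, did not pass in old against young wasps (log2 difference 0.38 ± 0.20 SE, edgeR adjusted p = 0.293).

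**Figure D4:**
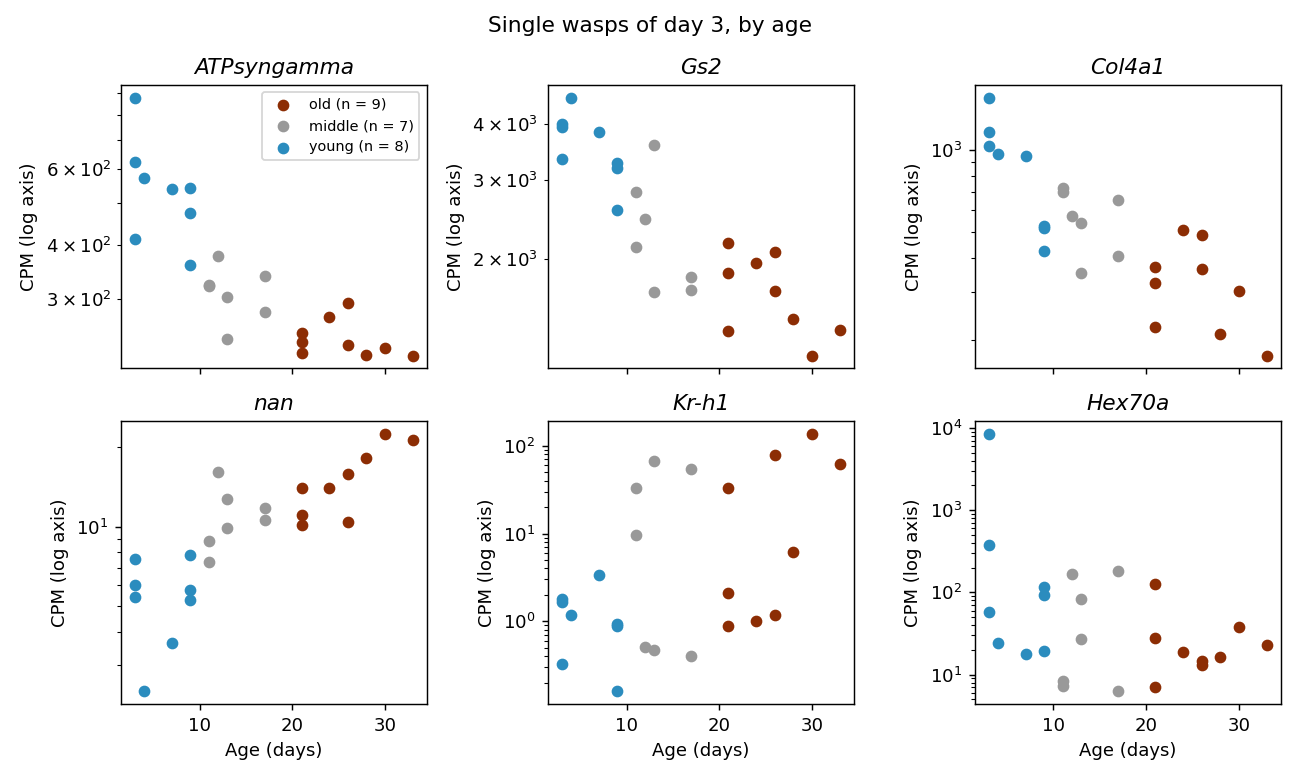
CPM of 6 genes in the 24 single wasps of day 3 against age in days, on log axes (blue young, grey middle, brown old). *ATPsyngamma* and *Gs2* separate old from young wasps and *nan* does so in the other direction, while *Kr-h1* spans 0.872 to 138 CPM among old wasps and 1 young wasp stands at 8529 CPM of *Hex70a*.

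Few other brain genes were called. *per*, of the circadian clock, was higher in old wasps (0.64 ± 0.18 SE, edgeR adjusted p = 0.0435), with an adjusted p of up to 0.0966 when single wasps were left out. *Sytbeta*, a synaptotagmin, was the only gene called of 24 for synaptic vesicle release (0.58 ± 0.13 SE, adjusted p = 0.00864). Neuropeptides and their receptors (21 genes), insulin and TOR signalling (12), ecdysone signalling (19), axon guidance and cell adhesion (27), immune genes (23), chaperones (28), cytochrome P450s (33) and fatty acid and hydrocarbon synthesis (33) had 0 called by edgeR. Over all 13 lists with 0 called, 44 of 274 genes had an unadjusted p under 0.05 and DESeq2 called 11.

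Age was also fitted as a slope over all 24 wasps, in log2 units per 10 days. The slope was above 0 at an adjusted p under 0.05 in 132 genes (1.22%) and below 0 in 260 (2.41%), and 318 of these 392 were among the 556 genes of the group comparison. The old and young wasps of the group comparison are also among these 24, so that the overlap in calls is not a separate result. The mean of the middle wasps lay between those of young and old wasps in 308 of the 331 lower and 208 of the 225 higher genes. These genes were picked for a gap between old and young wasps, which favours a middle mean inside the gap. No share over all genes stands beside these counts, so that they do not test whether the change with age is gradual.

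The genes lower in old wasps at day 3 mostly had age slopes below 0 in wasps that did not enter the comparison. Over the 12 control workers the slope was below 0 in 320 of the 331 genes (96.7%, beside 48.2% of all genes), and 47 were called falling (0.547% of all genes). Leaving out each control worker in turn gave 317 to 322 of the 331 with a slope below 0. Of the oxidative phosphorylation genes 63 of 65 had slopes below 0 in control workers and 18 were called falling, and 4 to 29 were called when single workers were left out.

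At day 12 the slope was below 0 in 287 of the 331 genes (86.7%, beside 49% of all genes) and 107 were called falling (2.02%), among them 44 of the 65 oxidative phosphorylation genes. These calls rested on 1 wasp. Of the 34 wasps of day 12, only replicate 22 of nest 45 was as young as 3 days, and its mean oxidative phosphorylation level was 8.97 where the others lay between 7.57 and 8.36. Without this wasp 0 of the 331 and 0 of the 65 genes were called, and 271 of the 331 (81.9%, beside 49.3% of all genes) and 62 of the 65 still had slopes below 0. The median slope of the 65 genes was -0.28 with and -0.12 without the wasp, in log2 units per 10 days.

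The genes higher in old wasps at day 3 mostly had slopes above 0 in control workers and lay on both sides of 0 at day 12. In control workers 206 of the 225 had slopes above 0 (91.6%, beside 51.8% of all genes), with 3 called rising (0.102%). At day 12 the count was 113 of 225 (50.2%, beside 51% of all genes), with 4 called rising (0.667%) and 1 falling, and 111 (49.3%) without the youngest wasp. The plot of slopes in other wasps shows both. Wasps of day 12 had a median age of 18.5 days and control workers a median age of 11.5 days. The part of this age difference in the shares was not tested. A test of whether the age slope differed between day 3 and day 12 called 7 genes (0.0649%) and 2 without the youngest wasp, and the same test against control workers called 1 gene (0.00926%). Of the 225 higher genes 2, *Ptp36E*, a tyrosine phosphatase, and an unnamed gene, were among the 7.

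**Figure D5:**
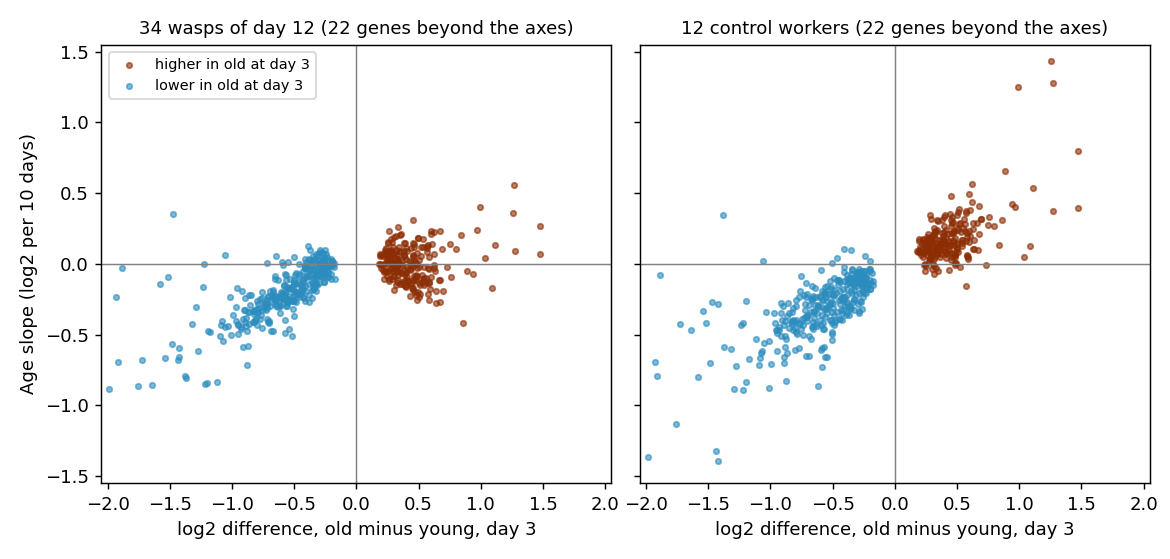
Age slope in log2 per 10 days against the log2 difference, old minus young, at day 3, one point per gene, for the 331 lower (blue) and 225 higher (brown) genes, in the 34 wasps of day 12 and the 12 control workers. In each panel 22 genes lie beyond the axes. Lower genes lie mostly below 0 in both panels, and higher genes lie mostly above 0 in control workers (206 of 225) and on both sides of 0 at day 12 (113 of 225 above).

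The age genes were also set beside caste, in queens and control workers. Of the 331 genes lower in old wasps 118 were higher in control workers than in queens (35.6%, beside 9.01% of all genes) and 5 were higher in queens. Of the 225 genes higher in old wasps 49 were higher in queens (21.8%, beside 10.7%) and 7 in control workers. Among oxidative phosphorylation genes 20 of 65 were higher in control workers and 1 in queens. Queens founded the nests on which the workers emerged, so that caste and age cannot be told apart in this comparison. The queens were taken as a single group, also those whose names carry the number of a nest that lost its queen. Queens and control workers of the same nest were not paired.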

How the data were processed

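RNA of single brains was sequenced. Per the study's methods, the authors took out ribosomal RNA (SortMeRNA), trimmed (Trimmomatic), mapped with STAR 2.7 and used StringTie2 for counting. What they deposited is a table of unnormalized whole-number counts, by gene. 11335 entries, 194 of them repeats of an ID that were summed, gave 11140 genes, and 10794 with more than 20 counts summed over a label group were kept. An entry without a gene name (0.0216% to 0.0706% of counts) was left out. Gene symbols came from RefSeq and product names from the study's gene tables.

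Counts of the 24 wasps of day 3 were fitted in 3 age groups with edgeR 4.0.16 (TMM, quasi-likelihood, Benjamini-Hochberg over 10794 genes, threshold 0.05) in R 4.3.3, and the code was tested on simulated data. CPM were computed with TMM factors. Age slopes were fitted per 10 days. DESeq2 1.42.0, limma 3.58.1 (voom, nest as random effect), nest as a fixed term, other filters, age limits and left-out nests and wasps were alternatives. The text names the 12 genes of smallest p with a name in each direction, up to 4 per list, a few fixed genes, and others from the lists described, which were chosen after their values were seen. The age groups, gene lists and tests were chosen with earlier results of these data known, and 3 lists (citric acid cycle, nuclear pore, nucleolus) after the values had been seen. A test on the wasps of a few nests measures the spread between these wasps. Genes sharing reads with near copies, such as histones, hexamerins and muscle genes, are uncertain. No library was a copy of another (highest correlation 0.98).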

Additional observations from a re-analysis of the deposited data

Results flagged for a closer look

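Of 96 groups of values tested for a sample far from the others, 4 were marked, where chance marks about 1 in 20. Young replicate 20 had 10045242 counts, where the other young wasps had 12801939 to 15171911. Middle replicate 24 had 298 CPM of ATP synthase subunit d, where the other middle wasps had 376 to 440 CPM. Old replicate 9 had 209 CPM of *Nup75*, where the other old wasps had 166 to 186 CPM, and 1690 CPM of *ATPsynC*, where the others had 1187 to 1419 CPM.

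The age slope differed between day 3 and day 12 in 7 genes by a test of the interaction (edgeR, adjusted p under 0.05), in log2 units per 10 days, day 3 minus day 12. The differences were -0.35 in a histone H2A gene, -0.24 in *mRpL53*, of the mitochondrial ribosome, 0.46 in *Ptp36E*, 0.75 in LOC107069784 and 3.03 in *apd-3l*, and none of these 5 was called without the youngest wasp of day 12. The other two, dirigent protein 10-like (-7.60) and LOC107074265 (-6.83), remained called without it (adjusted p = 0.000818 and 0.0222). Dirigent protein 10-like was at 0 in every old wasp of day 3 and reached 164 CPM in a young one, so that these fitted slopes depend on the prior count and are no bounds. Between day 3 and control workers 1 gene was called, LOC107063628 (4.20), with a mean of 0.0271 CPM at day 3, and DESeq2 called 0.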

How the results depend on the processing

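Of 170 genes followed under each alternative, 76 were called, and none of the calls changed direction under the alternatives run. The count of 556 genes was 889 (417 higher, 472 lower) with DESeq2, 22 (0 and 22) with nest as a fixed term, 242 (85 and 157) for wasps aged 24 or more against 7 or less, 78 (8 and 70) without nest 47, 312 without nest 57, 300 without nest 69 and 283 (88 and 195) without the listed new queens. Leaving out single wasps gave 350 (without young replicate 19) to 664 (without young replicate 5), and 362 without old replicate 6. With the ovarian index as a covariate the split was 286 higher and 261 lower, beside 225 and 331. Past 1.5-fold DESeq2 called 8 genes and edgeR 0. Nest as a fixed term kept 8 of the 76 calls, left 2 oxidative phosphorylation genes in place of 58 and 1 age slope at day 3 in place of 392. With nest as a random effect (limma voom) 374 genes were called (140 higher, 234 lower). That fit kept 60 of the 76 calls and 56 oxidative phosphorylation genes, with a correlation within nests of 0.0506. It still compares wasps of different nests. Without nest 47, 22 of the 76 calls were kept and 37 oxidative phosphorylation genes were lower, while *Nop60B*, *tam*, *Nup133*, *Eaat-2*, *Eno*, *Sod2* and the collagens were no longer called. The difference between ages and that between nests cannot be told apart for most genes. Among 17 fits without 1 wasp each, the call of *Prx5* was lost in 13, of *TpnCIIb* in 12, of *per* in 11, of *HEX70b* in 9 and of *Nup160* in 2.

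Age slopes in control workers were called in 404 genes with DESeq2 and 70 with edgeR, and in 16 (without control worker replicate 10) to 116 (without replicate 11) when single workers were left out. At day 12 the 290 calls fell to 1 without the youngest wasp, and the 7 differences between day 3 and day 12 to 2, with 29 in DESeq2. The 1 difference from control workers became 0 with DESeq2 and 0 with edgeR's filterByExpr. For control workers minus queens, a replicate block over the 12 shared numbers gave 1747 genes beside 2124. Pairs of the same number had correlations of deviations of -0.162 to 0.35, 2 of 12 over 0.1, so that the numbers do not pair the wasps. By the nest numbers in their names, most control workers do share a nest with a queen of the series. No fit used that pairing. Old and young wasps share no replicate number.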
